A study of Mus musculus with 15 samples.

Results

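The 10 genes described here are markers of astrocytes, *Slc1a2*, *Slc1a3*, *Aldh1l1*, *Aldoc*, *Gfap*, *Aqp4*, *S100b*, *Gja1*, *Sox9*, and *Apoe*. They were taken from a list and found by symbol after the Ensembl identifiers of the deposited table were matched to mouse genes. All 10 are among the 19475 genes in the table, and all 10 entered the test, which covered 16507 genes whose mean was 5 or more. RNA-Seq was carried out on brain tissue of 15 C57BL/6J mouse embryos at E16.5. There were 5 WT embryos, 5 heterozygous Tbr1+/K228E embryos, and 5 homozygous Tbr1K228E/K228E embryos, with 3 females and 2 males in each genotype. The mutant mice carry a knock-in of K228E, which exchanges lysine for glutamate in the DNA-binding T-box domain of TBR1, a transcription factor of early-born cortical neurons. The mutation lies in every cell, and the selection cassette was removed by a cross with protamine-Cre mice, which act in the male germ line. The study names the tissue as forebrain, whereas the series names whole brain and the sample labels name brain. The samples are separate embryos, and their litters are not given.

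Astrocytes are the glial cells that clear glutamate and potassium from synapses, supply metabolites to neurons, and contact blood vessels and the pial surface. In the mouse brain they are made late in embryonic life and after birth by radial glia, the progenitors that first produce neurons. The switch is driven by NFI factors, by SOX9, and by cytokine signals through JAK and STAT3. Many astrocyte markers are already transcribed in radial glia, so that at E16.5 none of the 10 genes marks mature astrocytes alone. Some are also transcribed outside the glial lineage, for example *Gja1* in the meninges, the membranes that cover the brain, and *Apoe* in microglia. In bulk tissue, fewer cells of a type cannot be told apart from less RNA per cell.

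No marker passed the threshold in a comparison of genotypes. Embryos of the same genotype differed widely in some markers, and for several of these, though not for *Gfap*, the spread went with 2 other sets of genes. *Aqp4*, *Aldoc*, and *Aldh1l1* were higher in embryos with more RNA of hindbrain and spinal cord Hox genes, and *Gja1* and *Apoe* were higher in embryos with more RNA of meningeal genes. Without Tbr1+/K228E replicate 1, none of the 3 passed the threshold on the Hox genes, and *Aldh1l1* passed in only 2 of the 15 fits that left out 1 embryo.

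The levels of the markers were compared per kilobase of exon, because longer transcripts yield more reads. The length joins all annotated exons of a gene, such as 10.3 kb for *Gja1*, and can exceed that of the transcripts present. The order of the markers is therefore approximate. In WT embryos, the normalized read count per kilobase was highest for *Apoe*, which encodes the main lipid carrier of the brain, at 1669 ± 520 (SD, n = 5). Next were *Aldoc*, a glycolytic aldolase, at 835 ± 190 and the glutamate transporter gene *Slc1a3* (GLAST) at 666 ± 93.0. The glutamate transporter gene *Slc1a2* (GLT-1) followed at 420 ± 65.3, *Aldh1l1*, an enzyme of folate metabolism, at 395 ± 76.6, and the transcription factor gene *Sox9* at 255 ± 29.2. *Gja1*, which encodes the gap junction protein connexin 43, reached 240 ± 107 and the water channel gene *Aqp4* 54.9 ± 37.5. The calcium-binding protein gene *S100b*, at 30.3 ± 17.8, and the intermediate filament gene *Gfap*, at 17.4 ± 6.46, were lowest. Of neighbors in this order, *Slc1a3* and *Slc1a2* did not overlap among the 5 WT embryos, nor did *Aldh1l1* and *Sox9*, whereas the ranges of the other neighbors overlapped.

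*Aqp4*, *S100b*, and *Gfap*, which are known to rise as astrocytes mature, were thus the 3 lowest of the 10. Not divided by length, *Gfap* had 30.2 to 109 normalized read counts per embryo and *S100b* 17.0 to 82.1. The annotation places the gene *Dip2a* on the opposite strand over *S100b*, and the library kit is not stated to keep the strand, so reads of the 2 genes may be mixed. *Slc1a2* and *Slc1a3*, by contrast, had 4584 to 6659 and 4478 to 6909 normalized read counts. For reference, 10 listed neuron markers summed to 226070 to 260596 normalized read counts in each embryo. The 10 astrocyte markers summed to 18156 to 29045, and neither sum is divided by length.

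**Figure D1:**
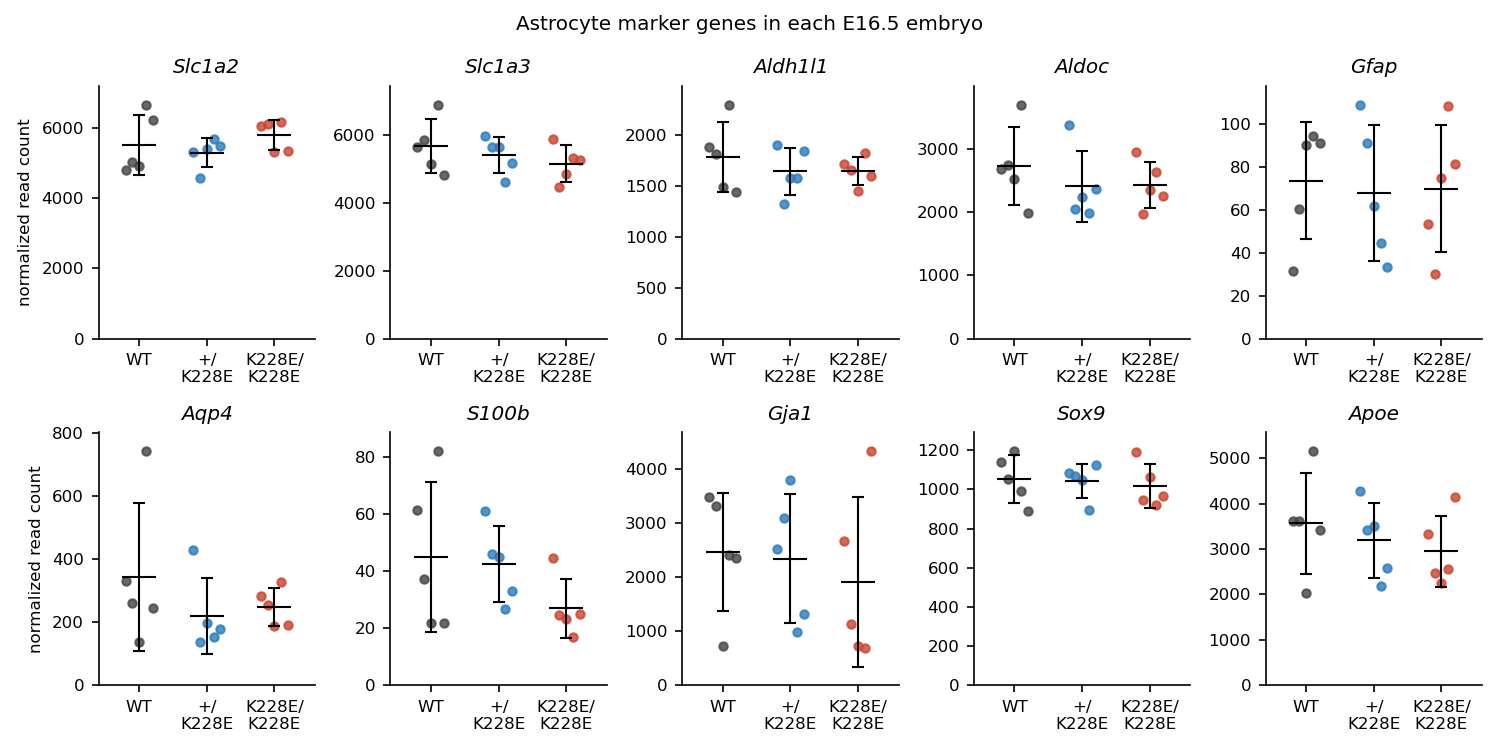
Normalized read counts (y axis, linear from 0) of the 10 astrocyte markers in each embryo, by genotype (x axis), with horizontal lines for the mean and bars for ± SD (n = 5). The ranges of the 3 genotypes overlap in every panel, and *Gja1*, *Aqp4*, *S100b*, and *Gfap* spread most.

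Upstream sequence was examined for the marker genes in the RefSeq promoters of GRCm38.p6, which span 300 bases from 250 before to 50 after a transcription start. The table held 11 starts of 8 markers, namely *Slc1a2*, *Slc1a3*, *Aldh1l1*, *Aldoc*, *Gfap*, *S100b*, *Gja1*, and *Apoe*. *Aqp4* and *Sox9* had no entry. The T-box half-site GGTGTGA was searched on both strands because K228E lies in the domain that binds it. None of the 11 windows held it, compared with 3.98% of all 32851 windows. The NFI half-site TTGGCA was present in 3 windows, of *Aldoc*, *Apoe*, and *S100b*, and in 14.1% of all windows. The STAT motif TTCNNNGAA was present in 3 windows, of *Aldoc*, *Gfap*, and *Slc1a3*, and in 8.3% of all windows. These are matches of letters and do not show binding.

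The 250 bases before the start are shown for 3 genes described below, *Aldoc*, which went with the Hox genes, *Gja1*, which went with the meningeal genes, and *S100b*. The mean of *S100b* was lowest in Tbr1K228E/K228E embryos, as were those of *Slc1a3*, *Gja1*, *Sox9*, and *Apoe*, and none of these differences passed the threshold. *Aldoc*, *Gja1*, and *S100b* lie on the plus strand, at chr11:78322823-78323072, chr10:56377050-56377299, and chr10:76253586-76253835. Capitals mark the NFI half-site, which begins 146 bases before the RefSeq start used for *Aldoc* and 19 bases before that of *S100b*. In the annotation whose gene positions are given below, *Aldoc* begins at 78322968. The last part of its bases shown therefore lies inside the annotated gene. *Gja1* held no match to the motifs in these bases.
Aldoc: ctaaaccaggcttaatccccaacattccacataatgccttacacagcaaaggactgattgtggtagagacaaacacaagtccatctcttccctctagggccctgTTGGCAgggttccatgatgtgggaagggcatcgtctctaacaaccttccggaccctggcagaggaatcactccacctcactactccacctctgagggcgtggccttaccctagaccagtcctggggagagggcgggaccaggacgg
Gja1: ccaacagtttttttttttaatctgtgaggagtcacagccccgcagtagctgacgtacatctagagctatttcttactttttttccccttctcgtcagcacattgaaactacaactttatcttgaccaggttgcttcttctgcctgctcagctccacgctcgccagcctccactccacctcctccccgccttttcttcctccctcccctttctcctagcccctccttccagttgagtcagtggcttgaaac
S100b: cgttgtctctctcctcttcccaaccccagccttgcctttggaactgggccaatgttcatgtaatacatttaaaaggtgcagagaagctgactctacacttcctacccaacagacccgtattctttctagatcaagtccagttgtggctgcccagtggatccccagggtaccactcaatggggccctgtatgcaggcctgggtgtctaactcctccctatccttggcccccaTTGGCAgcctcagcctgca

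To ask whether the mutation changed astrocyte markers, each mutant genotype was compared with WT and with the other. The values are log2 differences of normalized read counts + 1 from limma with their standard errors (SE), and p-values were adjusted over all 16507 tested genes. Both mutant genotypes share the same 5 WT embryos, so that the values against WT are not independent of each other. *Tbr1* served as a check of the labels. Its log2 difference from WT was 0.85 (SE 0.23) in Tbr1+/K228E and 1.69 (SE 0.23) in Tbr1K228E/K228E embryos, and its values in the latter did not overlap with WT. The difference passed the threshold in Tbr1K228E/K228E (limma, adjusted p = 0.00437) but not in Tbr1+/K228E embryos (adjusted p = 0.999), whose values overlapped with WT.

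In Tbr1+/K228E compared with WT embryos, 0 of 10 markers passed the threshold (limma, adjusted p = 0.999 for each), as did 0% of all tested genes, and 0 markers had an unadjusted p under 0.05, compared with 1.79% of all tested genes. The ranges of the genotypes overlapped for all 10, whereas 0.26% of tested genes did not overlap. In Tbr1K228E/K228E compared with WT embryos, again 0 of 10 passed the threshold and 0 had an unadjusted p under 0.05, compared with 0.127% and 3.23% of all tested genes, and 0 were without overlap, compared with 0.594%. Between the mutant genotypes the counts were 0, 0, and 0, compared with 0.0788%, 3.3%, and 0.878% of all tested genes. Each of the 30 intervals included 0.

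The glutamate transporters take up the transmitter that neurons release. *Slc1a2* (ENSMUSG00000005089, GRCm38 chromosome 2, 102658659 to 102790784, plus strand) had 5516 ± 858 normalized read counts in WT, 5291 ± 418 in Tbr1+/K228E, and 5796 ± 437 in Tbr1K228E/K228E embryos (SD, n = 5 each). It was the one marker with a value above 0 in Tbr1K228E/K228E embryos relative to WT, at a log2 difference of 0.08 (95% confidence interval −0.11 to 0.28). *Slc1a3* (ENSMUSG00000005360, chromosome 15, 8634124 to 8710764, minus strand) had 5689 ± 794, 5420 ± 528, and 5169 ± 539 normalized read counts. Its log2 differences from WT were −0.06 (−0.27 to 0.14) and −0.13 (−0.34 to 0.07). These intervals are narrow, so that for both transporters a change of 0.4 or more on the log2 scale lies outside them.

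Of the metabolic enzymes, *Aldh1l1* (ENSMUSG00000030088, chromosome 6, 90486427 to 90600203, plus strand) is often used to label astrocytes of all kinds. It had 1783 ± 346 normalized read counts in WT, 1641 ± 235 in Tbr1+/K228E, and 1648 ± 139 in Tbr1K228E/K228E embryos. *Aldoc* (ENSMUSG00000017390, chromosome 11, 78322968 to 78327781, plus strand) had 2677, 2738, 2526, 3698, and 1988 in WT replicates 1 to 5. In Tbr1+/K228E embryos it had 3382, 2048, 2237, 1991, and 2368, and in Tbr1K228E/K228E embryos 2943, 1974, 2349, 2626, and 2256. In WT and Tbr1+/K228E the highest value was 1 embryo that stood well above the others, and the lowest values of the 3 genotypes were nearly equal. The log2 differences of *Aldoc* from WT were −0.18 (−0.52 to 0.17) and −0.15 (−0.50 to 0.19).

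*Apoe* (ENSMUSG00000002985, chromosome 7, 19696109 to 19699188, minus strand) had 3609, 3626, 2024, 5160, and 3416 normalized read counts in WT embryos. It had 4292, 3411, 3505, 2194, and 2576 in Tbr1+/K228E embryos and 3324, 2475, 2248, 2556, and 4140 in Tbr1K228E/K228E embryos. The means fell in the order of the number of mutant alleles, at 3567, 3196, and 2949, but the ranges overlapped across most of their width. The log2 difference between Tbr1K228E/K228E and WT embryos was −0.25 (−0.75 to 0.25).

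*Aqp4* (ENSMUSG00000024411, chromosome 18, 15389496 to 15410982, minus strand) encodes the water channel of astrocyte endfeet. It had 328, 260, 135, 741, and 245 normalized read counts in WT embryos. In Tbr1+/K228E embryos it had 429, 137, 197, 154, and 177, and in Tbr1K228E/K228E embryos 282, 254, 188, 328, and 190. WT replicate 4 and Tbr1+/K228E replicate 1 were the highest embryos, and the lowest embryo of all was also WT. The log2 difference between Tbr1+/K228E and WT embryos, −0.55 (−1.35 to 0.26), was the largest of the 10 in that comparison and did not pass the threshold (exact permutation of the 10 embryos of both groups, two-sided, p = 0.317). Without WT replicate 4 it was −0.21, and over all fits that left out 1 embryo it ranged from −0.82 to −0.21.

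*S100b* (ENSMUSG00000033208, chromosome 10, 76253853 to 76261159, plus strand) had 61.6, 37.1, 21.7, 82.1, and 21.9 normalized read counts in WT embryos. It had 61.3, 46.2, 44.9, 26.6, and 33.0 in Tbr1+/K228E and 44.7, 24.7, 23.1, 17.0, and 25.1 in Tbr1K228E/K228E embryos. The level was low in 4 of 5 Tbr1K228E/K228E embryos, but 2 WT embryos were as low. Its log2 difference between the mutant genotypes was −0.65 (−1.43 to 0.13), with an adjusted p of 0.996 in limma. The exact permutation test of this gene alone gave p = 0.0476, the smallest of the 30 such tests on the markers, and it was not adjusted for their number. The smallest p that 5 against 5 embryos allow is 0.00794.

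*Gja1* (ENSMUSG00000050953, chromosome 10, 56377330 to 56402513, plus strand) varied most. It had 3492, 3317, 723, 2413, and 2364 normalized read counts in WT embryos, 2528, 3089, 3808, 981, and 1314 in Tbr1+/K228E embryos, and 2665, 1140, 716, 679, and 4334 in Tbr1K228E/K228E embryos. Both the lowest and the highest embryo were Tbr1K228E/K228E. The log2 difference of this genotype from WT was −0.58, and its interval, −1.76 to 0.61, was the widest with those of *Gja1* in the other comparisons. In the fit with the meningeal score described below, the difference was −0.18 (−0.60 to 0.25).

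*Gfap* (ENSMUSG00000020932, chromosome 11, 102887336 to 102900912, minus strand) had 73.5 ± 27.3, 67.9 ± 31.6, and 69.7 ± 29.6 normalized read counts in WT, Tbr1+/K228E, and Tbr1K228E/K228E embryos. *Sox9* (ENSMUSG00000000567, chromosome 11, 112782224 to 112787760, plus strand) was the steadiest marker, at 1054 ± 121, 1043 ± 88.9, and 1016 ± 111. Its log2 differences from WT were −0.01 (−0.20 to 0.18) and −0.05 (−0.24 to 0.14), the narrowest intervals together with those of *Slc1a2*.

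**Figure D2:**
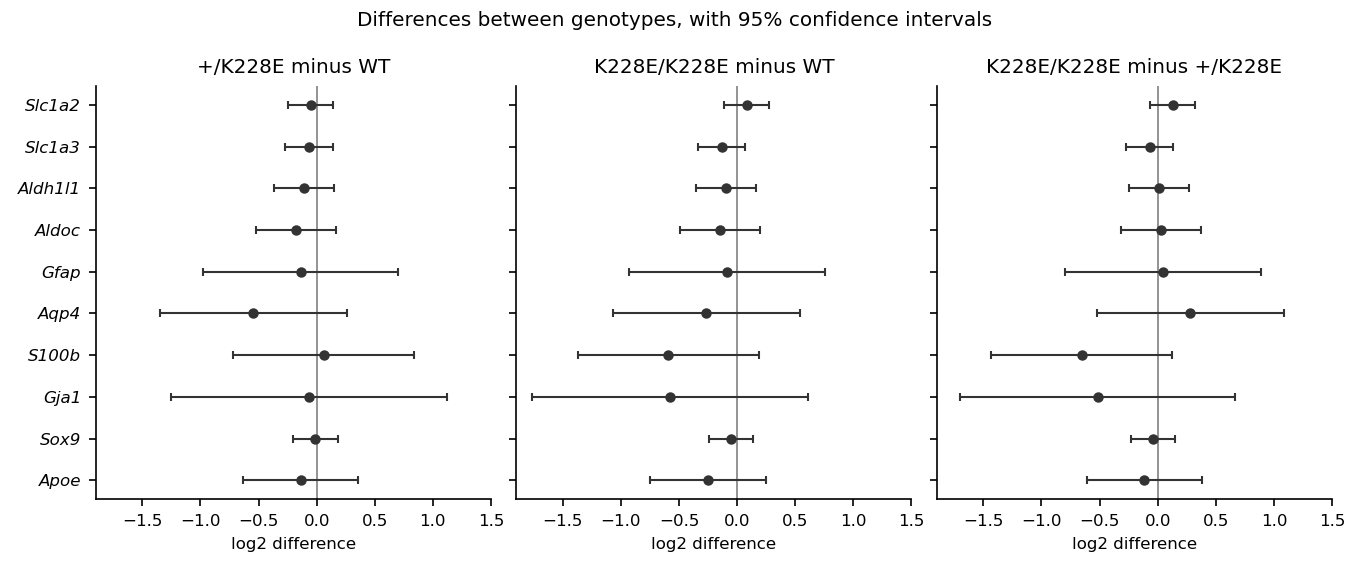
Log2 differences (x axis) of the 10 astrocyte markers (y axis) in the 3 comparisons of genotypes, as points with 95% confidence intervals from limma. All 30 intervals cross 0, and those of *Gja1*, *Gfap*, *S100b*, and *Aqp4* are the widest.

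Although no marker passed the threshold, 9 of 10 had a value below 0 in each mutant genotype relative to WT. The background is 51.2% of tested genes below 0 in Tbr1+/K228E and 51.3% in Tbr1K228E/K228E embryos. The median log2 difference of the markers was −0.09 in the former and −0.14 in the latter, where the medians of all tested genes were −0.0021 and −0.0023. Between the mutant genotypes 5 markers were above and 5 below 0, compared with 49.8% of tested genes below. The markers are not independent of one another, since their deviations from the genotype means correlated with a median r of 0.37 over 45 pairs, from −0.53 (*Slc1a2* with *Sox9*) to 0.84 (*Slc1a3* with *Aldoc*). The 15 points of each correlation share libraries and scaling, and these values are a description.

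The size of the medians below 0 depended on single embryos. Without WT replicate 4, which had the highest values of *Slc1a2*, *Slc1a3*, *Aldh1l1*, *Aldoc*, *Aqp4*, *S100b*, and *Apoe* of the 15, 6 of 10 markers were below 0 in each mutant genotype, with medians of −0.02 and −0.05. Without Tbr1+/K228E replicate 4 the median of Tbr1+/K228E embryos was −0.01, with 7 of 10 below 0.

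Another 32 astrocyte genes from a list were compared in the same way. None passed the threshold in any comparison of genotypes (limma with Benjamini–Hochberg adjustment), and 0, 0, and 1 had an unadjusted p under 0.05 in Tbr1+/K228E and Tbr1K228E/K228E relative to WT and between the mutants. Of all tested genes, 0%, 0.127%, and 0.0788% passed, and 1.79%, 3.23%, and 3.3% had such an unadjusted p. In Tbr1+/K228E embryos 27 of 32 had a value below 0, with a median of −0.12, and in Tbr1K228E/K228E embryos 26 of 32, with a median of −0.10. The smallest unadjusted p against WT belonged to *Kcnj10*, the potassium channel Kir4.1, with log2 differences of −0.16 (SE 0.09) in both mutant genotypes. *Itih3* had −0.59 (SE 0.35) in Tbr1+/K228E and *Htra1*, a secreted protease, −0.28 (SE 0.21) in Tbr1K228E/K228E embryos. Above 0 were *Dio2*, which activates thyroid hormone, at 0.36 (SE 0.31) in each mutant genotype, *Cldn10* at 0.28 (SE 0.25) in Tbr1+/K228E, and the neurotensin receptor gene *Ntsr2* at 0.37 (SE 0.23) in Tbr1K228E/K228E embryos. Between the mutant genotypes *Ntsr2* and the lipoprotein gene *Clu* were above 0, at 0.53 (SE 0.23) and 0.10 (SE 0.09), and *Gjb6*, which encodes connexin 30, and *Glul*, the glutamine synthetase gene, were below, at −2.33 (SE 1.66) and −0.11 (SE 0.09). Without WT replicate 4, 22 and 20 of 32 were below 0 relative to WT, with medians of −0.03 in both. Over all fits that left out 1 embryo, the medians were −0.18 to −0.03 in Tbr1+/K228E and −0.16 to −0.03 in Tbr1K228E/K228E embryos.

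Regulators of astrocyte production were the next list, of which 0 of 21 passed the threshold in any comparison of genotypes. Compared with 1.79%, 3.23%, and 3.3% of all tested genes, 0, 1, and 2 of the regulators had an unadjusted p under 0.05. Their median log2 differences were −0.03 in Tbr1+/K228E and −0.06 in Tbr1K228E/K228E embryos. *Nfia*, an NFI factor required for the onset of astrocyte production, had log2 differences of −0.46 (SE 0.14) between Tbr1K228E/K228E and WT and −0.40 (SE 0.14) between the mutants, with adjusted p = 0.907 and 0.996. The study used another test, DESeq2 with p-values corrected by an empirical null. It lists *Nfia* among the genes called lower in Tbr1K228E/K228E than in WT embryos. *Lifr*, a cytokine receptor subunit upstream of STAT3, had values of 0.19 (SE 0.10) and 0.33 (SE 0.10), with adjusted p = 1.00 and 0.843, and *Bmpr1b*, a BMP receptor, −0.23 (SE 0.12) and −0.16 (SE 0.12). In Tbr1+/K228E embryos *Cntfr* and *Jak1*, of the same cytokine pathway, had −0.15 (SE 0.09) and −0.11 (SE 0.07), and *Rbpj* and *Smad4*, of the Notch and BMP pathways, 0.06 each (SE 0.06 and 0.09). Also above 0 were *Jak2* in Tbr1K228E/K228E embryos relative to WT, at 0.02 (SE 0.07), and *Stat3* between the mutants, at 0.06 (SE 0.10).

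Of 13 radial glia genes, 0 passed the threshold in any comparison of genotypes. Compared with 1.79%, 3.23%, and 3.3% of all tested genes, 1, 0, and 1 of the radial glia genes had an unadjusted p under 0.05. Their medians were 0.00 in both mutant genotypes relative to WT, so that this list did not share the values below 0 of the astrocyte markers, a difference that was not tested. Several lists of other cell types, described below, also had most values below 0 in Tbr1K228E/K228E embryos. The extracellular matrix gene *Tnc* was at −0.17 (SE 0.07) in Tbr1+/K228E embryos relative to WT and at 0.18 (SE 0.07) between the mutant genotypes. *Fabp7*, a fatty acid carrier of radial glia, was at −0.09 (SE 0.06) in Tbr1+/K228E, where the transcription factor genes *Nr2e1* and *Sox2* were at 0.25 (SE 0.22) and 0.09 (SE 0.10). In Tbr1K228E/K228E embryos relative to WT, *Ptprz1* and *Nr2e1* were at 0.14 (SE 0.09) and 0.15 (SE 0.22), and *Hes1* and *Mfge8* at −0.14 (SE 0.14) and −0.09 (SE 0.10). *Ptprz1* was at 0.17 (SE 0.09) between the mutants, and *Pax6* and *Vim* were at −0.15 (SE 0.10) and −0.13 (SE 0.11).

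Sex was balanced within genotypes and was tested in a fit with genotype. Between males and females 0 of 10 markers passed the threshold, compared with 0.0788% of all tested genes. *Slc1a2* was higher in males by 0.17 (SE 0.06) and *Sox9* lower by −0.18 (SE 0.06), each with an adjusted p of 0.410 in limma. These were the 2 markers with an unadjusted p under 0.05, compared with 11% of all tested genes.

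The embryos were next compared within genotypes. Sums of the normalized read counts of the hindbrain and cord Hox genes, transcription factors of the posterior body axis that are silent in the forebrain, ranged from 0.660 to 3964. The sum was at least 100 in 6 embryos, WT replicates 1, 2, and 4, Tbr1+/K228E replicate 1, and Tbr1K228E/K228E replicates 1 and 2, and at most 59.7 elsewhere. Sums of 12 meningeal genes ranged from 549 to 34502, and WT replicate 3 and Tbr1K228E/K228E replicates 3 and 4 were lowest, with scores of 4.59 to 5.12 compared with 7.51 to 9.82 in the others. A score is the mean log2(normalized read count + 1) of a list, from 17 Hox genes in the table or the 12 meningeal genes, and no astrocyte marker is in either list. The mean Hox score was 2.90 in WT, 1.65 in Tbr1+/K228E, and 1.61 in Tbr1K228E/K228E embryos, and the mean meningeal score was 8.22, 8.76, and 7.42. The scores did not differ between genotypes by more than the spread between embryos (two-sided exact permutation tests of 5 against 5, p = 0.302 to 0.968). With so few embryos, these tests do not show that the scores were balanced.

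The SD of the log2 values within genotypes ranged from 0.15 for *Sox9* and 0.16 for *Slc1a2* to 0.67 for *Aqp4*, 0.68 for *Gfap*, and 0.99 for *Gja1*. The median of all tested genes was 0.15, so that *Gja1* varied more than 96.7% of them. The Hox score alone went with 74.2% of this variance for *Aqp4*, 63.4% for *Aldoc*, 58.6% for *Aldh1l1*, and 57.5% for *S100b*, where the median of all tested genes was 10.2%. The meningeal score went with 88.3% for *Gja1* and 58.6% for *Apoe*, where the median was 8.2%. *Slc1a2*, *Sox9*, and *Gfap* went with neither, since both scores together took 6.78%, 3.30%, and 7.62%, below the median of 25.5%.

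**Figure D3:**
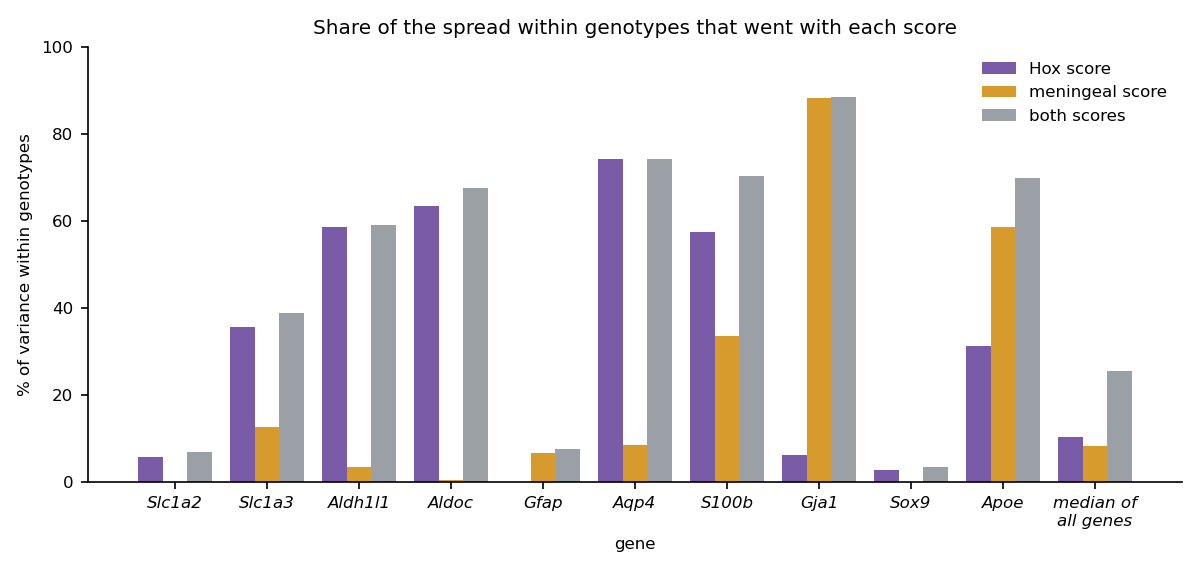
Share of the variance of log2 values within genotypes (y axis, in %, linear from 0) that went with the Hox score, the meningeal score, or both in a linear fit, for each marker and for the median of all tested genes (x axis). *Aqp4* stands highest for the Hox score at 74.2% and *Gja1* for the meningeal score at 88.3%.

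In a limma fit with genotype and the Hox score, 3 of 10 markers rose with the score, compared with 0.891% of tested genes that rose. The slope is the log2 change per unit of the score. *Aqp4* had a slope of 0.25 (SE 0.04, adjusted p = 0.0107), *Aldoc* 0.10 (SE 0.02, adjusted p = 0.0327), and *Aldh1l1* 0.07 (SE 0.02, adjusted p = 0.0487), and the slopes of all 10 were above 0, compared with 51.1% of tested genes. *S100b* had a slope of 0.21 (SE 0.05), which missed the threshold at an adjusted p of 0.0605. In the 6 embryos with a Hox sum of at least 100, *Aqp4* had 254 to 741 normalized read counts (median 305), compared with 135 to 328 (median 188) in the rest, and *S100b* had 24.7 to 82.1 (median 53.0) compared with 17.0 to 46.2 (median 25.1). The ranges overlapped at their ends.

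The embryos were also split at a Hox sum of 100, and in neither subset did a marker pass the threshold. The slopes of *Aqp4* were 0.54 (SE 0.09, adjusted p = 0.530) in the 6 embryos and 0.60 (SE 0.34, adjusted p = 0.676) in the 9, those of *Aldoc* 0.17 (SE 0.10, adjusted p = 0.608) and 0.21 (SE 0.13, adjusted p = 0.683), and those of *Aldh1l1* 0.12 (SE 0.04, adjusted p = 0.530) and 0.32 (SE 0.13, adjusted p = 0.669), above 0 for these 3 genes in both subsets. Of all 10 markers, 8 had a slope above 0 in the 6 embryos, whereas in the 9 only 4 did and 6 were below 0 (median −0.01). Without Tbr1+/K228E replicate 1, the embryo with the highest Hox sum, none of the 10 passed (adjusted p = 0.0620 for *Aqp4*). *Aqp4* passed in each of the other 14 fits that left out 1 embryo, *Aldoc* in 9 of 15, and *Aldh1l1* in 2 of 15. The call of *Aldoc* was lost without WT replicate 3 or 4, Tbr1+/K228E replicate 1, 2, or 4, or Tbr1K228E/K228E replicate 1, with adjusted p = 0.0523 to 0.177, and that of *Aldh1l1* in all fits but those without Tbr1+/K228E replicate 5 or Tbr1K228E/K228E replicate 4, with adjusted p up to 0.135.

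In a limma fit with genotype and the meningeal score, *Gja1* and *Apoe* rose with the score, 2 of 10, compared with 6.5% of tested genes that rose. The slope of *Gja1* was 0.50 (SE 0.05, adjusted p = 4.16e-06) and that of *Apoe* 0.17 (SE 0.04, adjusted p = 0.00947). The 3 embryos lowest in the meningeal score had 679 to 723 *Gja1* normalized read counts and were the 3 lowest of all 15. Among the other 12 embryos the slope of *Gja1* was 0.87 (SE 0.08, adjusted p = 4.52e-05), so that it was not set by those 3 alone, whereas *Apoe* had 0.26 (SE 0.10) and did not pass (adjusted p = 0.161). *Gja1* passed in all 15 fits that left out 1 embryo, and *Apoe* in all but that without WT replicate 3 (adjusted p = 0.129). Within the 6 embryos high in Hox genes the slopes were 0.66 (SE 0.19, adjusted p = 0.117) for *Gja1* and −0.18 (SE 0.16, adjusted p = 0.583) for *Apoe*, and within the other 9 they were 0.55 (SE 0.05, adjusted p = 0.000465) and 0.19 (SE 0.02, adjusted p = 0.00121).

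**Figure D4:**
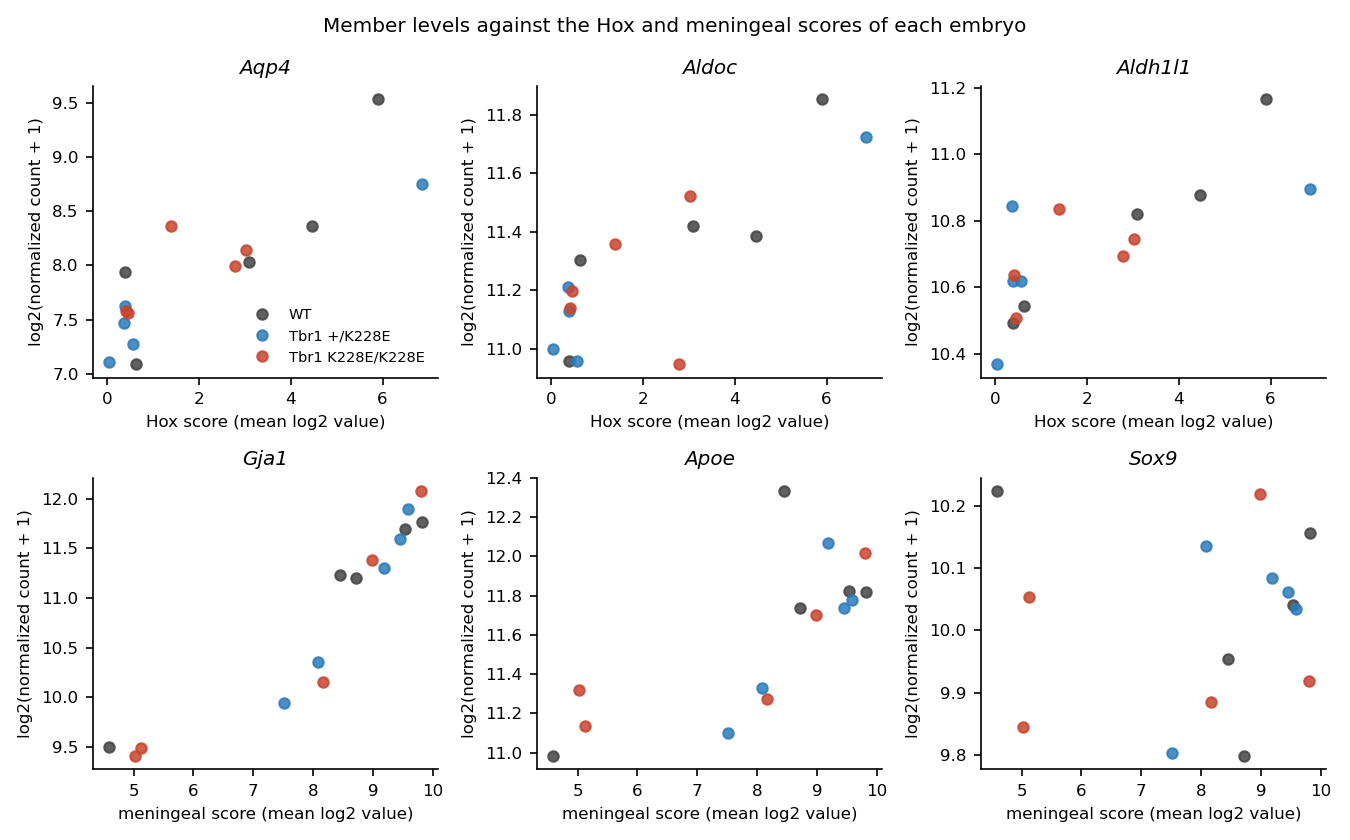
Log2(normalized read count + 1) of a marker (y axis) against the Hox score (upper row) or the meningeal score (lower row) of the same embryo (x axes, mean log2 values), with 1 point per embryo colored by genotype. *Gja1* follows the meningeal score with a slope of 0.50 and *Aqp4* the Hox score with a slope of 0.25, each from 1 fit shared by the genotypes, whereas the slope of *Sox9* on the meningeal score is −0.00128.

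The scores were also fitted in the other lists. Of the 32 other astrocyte genes, 30 had a Hox slope above 0 and 3 passed, *Slc25a18* at 0.18 (SE 0.04, adjusted p = 0.0284), *Hepacam*, a cell adhesion gene of glia, at 0.11 (SE 0.03, adjusted p = 0.0472), and *Ndrg2* at 0.06 (SE 0.01, adjusted p = 0.0284). Of all tested genes, 51.1% had a Hox slope above 0 and 0.891% rose past the threshold. With the meningeal score 6 rose, among them *Gjb6* with a slope of 1.57 (SE 0.08) and *Sparcl1*, *Glul*, *Plpp3*, and *S1pr1* with slopes of 0.15, 0.07, 0.07, and 0.04. Of all tested genes, 6.5% rose with this score. *Gjb6* ranged from 0 to 415 normalized read counts. Of the regulators, *Lifr* and *Jak1* rose with the Hox score by 0.06 and 0.05, *Zbtb20* and *Jak2* fell by 0.09 and 0.04 per unit, and *Il6st* rose with the meningeal score by 0.09. No radial glia gene passed with either score (limma, smallest adjusted p = 0.0949 and 0.155), and 4 of 13 had an unadjusted p under 0.05 with each, compared with 19.8% and 17.7% of all tested genes.

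Lists of other cell types were read in the same fits, since the tissue could hold them in unequal amounts. With the meningeal score, 12 of 14 vascular markers, 6 of 9 choroid plexus markers, 4 of 11 microglia markers, 2 of 4 tested ependymal markers, and 1 of 9 oligodendrocyte lineage markers rose, as did all 12 meningeal genes that make up the score, and 0 of 10 neuron markers (8 of the neuron markers had a slope below 0). The share of all tested genes that rose was 6.5%. With the Hox score, 2 of 10 neuron markers rose, compared with 0.891% of all tested genes, and none of these other lists had a marker that passed. Hox slopes above 0 were not limited to astrocyte genes. They were found for 8 of 9 oligodendrocyte lineage, 12 of 12 meningeal, 9 of 9 choroid plexus, and 12 of 14 vascular markers. For ependymal, neuron, and microglia markers the counts were 3 of 4, 7 of 10, and 5 of 11. Of the oligodendrocyte lineage markers, 7 of 9 had an unadjusted p under 0.05 (limma, smallest adjusted p = 0.0527), compared with 19.8% of all tested genes. Of the Hox genes themselves, 13 of 14 tested rose. No gene of any of the 12 lists passed in a comparison of genotypes. Relative to WT, values below 0 were not limited to astrocyte genes. In Tbr1K228E/K228E embryos 8 of 9 oligodendrocyte lineage, 10 of 11 microglia, 13 of 14 vascular, and 10 of 12 meningeal markers were below 0. So were 6 of 9 choroid plexus, 3 of 4 ependymal, and 4 of 10 neuron markers, and 13 of 14 Hox genes. In Tbr1+/K228E embryos the counts in this order were 7, 7, 4, 1, 3, 0, 7, and 12. Of all tested genes, 51.3% and 51.2% were below 0. The summed choroid plexus markers ranged from 1168 to 25703, the vascular markers from 9437 to 16971, and the microglia markers from 1663 to 2791 across embryos, with overlapping ranges in the 3 genotypes. The part of these tissues in the levels of the astrocyte markers was not tested.

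The differences between genotypes were then fitted with the scores. With the Hox score as a covariate, the median of the 10 markers was −0.02 in Tbr1+/K228E and −0.06 in Tbr1K228E/K228E embryos, with 7 and 8 of 10 below 0. For *Aqp4* the difference between Tbr1+/K228E and WT embryos was −0.23 (−0.68 to 0.22), compared with −0.55 without the covariate. For *Aldoc* the differences were −0.06 and −0.02, compared with −0.18 and −0.15. With the meningeal score the medians were −0.10 and −0.13, and with both scores −0.03 and −0.05. For the 32 other astrocyte genes the medians with both scores were −0.07 and −0.01.

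Among the 9 embryos with a Hox sum under 100, only replicates 3 and 5 are WT. The medians of the markers there were 0.04 in Tbr1+/K228E and 0.03 in Tbr1K228E/K228E embryos, with 5 and 4 of 10 below 0. Among the 6 embryos with a higher sum, which include 1 Tbr1+/K228E embryo, assumed in the fit to vary like the rest, the medians were 0.05 and −0.40, with 4 and 8 of 10 below 0. The Hox sums and these subsets were set after the data had been examined. High Hox sums were found in 3 of 5 WT and 3 of 10 mutant embryos.

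**Figure D5:**
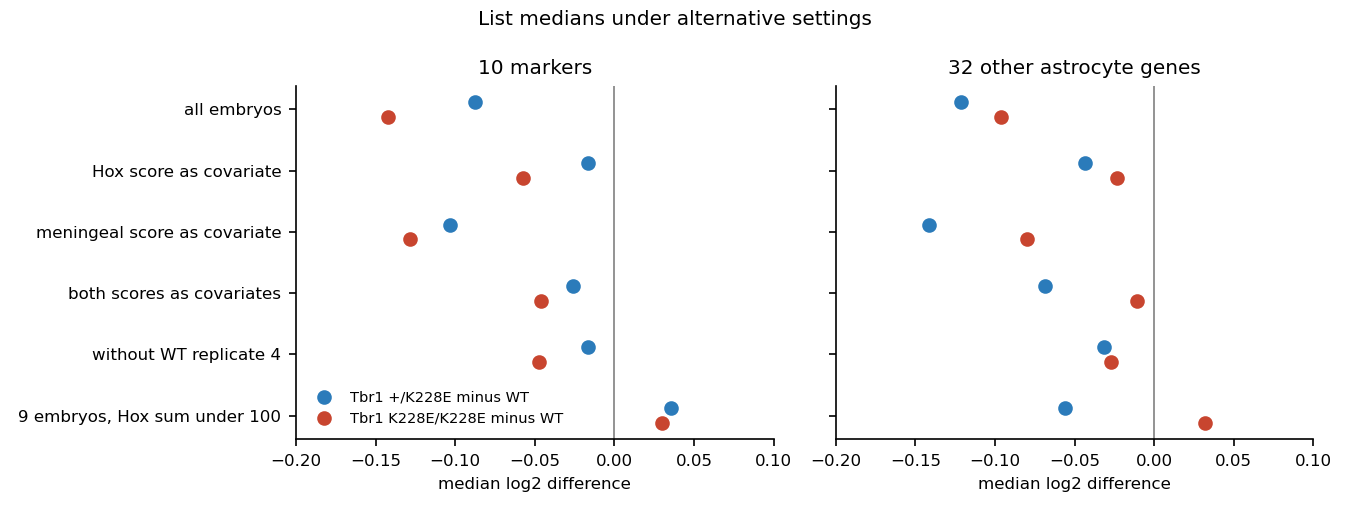
Median log2 difference from WT (x axis) of the 10 astrocyte markers (left) and 32 other astrocyte genes (right) in Tbr1+/K228E (blue) and Tbr1K228E/K228E embryos (red) for 6 settings of the fit (y axis). The medians of the markers lie at −0.09 and −0.14 with all embryos and at 0.04 and 0.03 among the 9 embryos with a Hox sum under 100. The 6 embryos with a higher sum are not plotted, and their medians are 0.05 and −0.40. This split was set after the data had been examined.

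The genes whose deviations from the genotype means were most like those of each marker were looked up among 13533 other genes with a mean of at least 50, by Pearson r over the 15 embryos. These values were selected as the highest and are a description. *Gja1* was most like *Anxa3*, *Foxc1*, and *Cavin1* (r = 0.99 each), of which *Foxc1* is in the meningeal list. *Aqp4* was most like *Emp2* (r = 0.97), *Nefh* (r = 0.96), which encodes a neurofilament of large axons, and *Jak1* (r = 0.95), and *S100b* like *Ngfr* (r = 0.93), *Adamts5* (r = 0.91), and *Atox1* (r = 0.90). *Slc1a3* and *Aldoc* shared *Cst3*, the cystatin C gene in the list of other astrocyte genes (r = 0.92 and 0.91), beside *Pcx* and *Slc9a3r1* for *Slc1a3* (r = 0.91 each) and *Sfxn5* and *Ndufs4* for *Aldoc* (r = 0.92 and 0.91). *Apoe* was most like *Parm1*, *Akap12*, and *Stom* (r = 0.94 each) and *Gfap* like *Cbs* (r = 0.84), *Mmd2*, and *Arhgef26* (r = 0.82 each). *Aldh1l1* was most like *AI464131*, *Vdac2* (r = 0.95 each), and *Lrrn1* (r = 0.94). *Slc1a2* was most like *Timm9* (r = 0.96), *Grik1* (r = 0.94), and *Omg* (r = 0.93), and *Sox9* like *Cbr4* (r = 0.90), *Zfand3* (r = 0.89), and *Snrnp35* (r = 0.88).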

How the data were processed

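RNA-Seq libraries (TruSeq RNA Sample Prep Kit v2) of 15 mouse brain samples were analyzed, with genotype, sex, and replicate number from the labels. The authors ran Salmon 0.11.2 against GRCm38, collected transcripts into genes through tximport, and deposited a normalized signal, that is counts scaled by DESeq2 1.22.2 in R 3.5.3. Whole reads could not be recovered, so a count test was not used. Depth, read from the spacing of low values, was roughly 26.3 to 38.1 M reads (M, mega) a sample. Of 19475 identifiers, 19452 matched a symbol in GENCODE M21. Tests used limma 3.58.1 under R 4.3.3 (lmFit, eBayes with a trend) on log2(value + 1), which understates changes of low genes, over all 15 samples, with Benjamini–Hochberg adjustment over 16507 genes and a threshold of 0.05. Single genes were compared by exact permutation of 5 against 5 samples (252 splits). P-values set a difference or a slope against the spread between these samples, which were taken as independent although their litters are not given.

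On simulated data, 85% of 200 genes shifted by a log2 difference of 1 between Tbr1K228E/K228E and WT were recovered among 16507 genes, and 73% of 200 genes given a Hox slope of 0.2. The genes were picked at random, and the noise was independent between genes, unlike the shared spread of the real libraries. These shares do not hold for markers that vary widely, such as *Gja1*, with an SD of 0.99 compared with a median of 0.15. The markers and lists were chosen with earlier results of these data known. Named are all 10 markers, any other listed gene past the threshold in a comparison of genotypes or, for astrocyte, regulator, and radial glia genes, past it on a score (1 such gene is not reported here), the 2 genes of these 3 lists with the smallest p in each direction, the 3 genes most like each marker, and *Tbr1*. Alternatives were other pseudocounts (0.1, 10), filters (none, a mean of at least 50), scaling, robust eBayes, sex, a replicate block, both scores, only the 2 compared genotypes, an empirical null, and leaving out each sample.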

Additional observations from a re-analysis of the deposited data

Results flagged for a closer look

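In each genotype, the highest or lowest embryo of each marker was compared with its nearest neighbor. The gap exceeded 0.71 of the range of the 5 embryos, the critical value of Dixon's test at 95%, in 2 of 30 groups, and chance gives about 1 in 20. Both were Tbr1+/K228E replicate 1, the embryo with the highest Hox sum of all 15 (3964). Its *Aqp4* was 429 normalized read counts, with 137 to 197 in the other 4 Tbr1+/K228E embryos, and its *Aldoc* was 3382, with 1991 to 2368. No marker of a WT or Tbr1K228E/K228E group met the limit.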

How the results depend on the processing

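No marker passed the threshold between genotypes or sexes under any of the alternatives, including the empirical null. The marker values that passed on a score kept their sign under every alternative but 1, since the meningeal slope of *Apoe* was −0.18 in the 6 embryos with a Hox sum of at least 100. Uncalled values were less stable, as 7, 3, and 5 of 10 markers changed sign under at least 1 of the settings listed above, leaving out embryos included, in Tbr1+/K228E and Tbr1K228E/K228E relative to WT and between the mutants, and 10, 7, and 6 when the Hox and meningeal subsets chosen after seeing the data are counted.

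On the Hox score, 3 markers passed, 0 to 3 when 1 embryo was left out, 4 with sex, 2 with both scores or no filter, 0 in either Hox subset, and 1 in the 12 embryos highest in meningeal genes. On the meningeal score, 2 passed, 1 to 2 when 1 was left out, 0 in the 6 embryos high in Hox genes, and 1 in those 12. Over all genes, 274 passed on the Hox score (46 without Tbr1+/K228E replicate 1 to 594 without WT replicate 5, 1372 with sex, 81 with both scores, 0 in either Hox subset, 35 in the 12) and 1162 on the meningeal score (142 and 626 in the Hox subsets). Between Tbr1K228E/K228E and WT, 21 genes passed (12 to 22 with 1 left out, 12 with the 2 genotypes alone, 42 with the empirical null, 0 and 2 in the Hox subsets, 7 in the 12). Between the mutants 13 passed (6 to 17 with 1 left out, 21 with the Hox score, 2 and 3 in the subsets, 0 in the 12), between sexes 13 (10 to 24 with 1 left out, 4 and 8 in the subsets), and between Tbr1+/K228E and WT 0, or 2 in the 6 embryos. The cause was not tested.

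With the replicate number as a block, 0 markers and 11 genes passed on the Hox score, 1 marker (*Gja1*) and 535 genes on the meningeal score, and 2 genes between the mutants. Same-numbered embryos were of the same sex in all genotypes, so the block also takes up sex. The labels do not say what else a number shares. Not every same-numbered pair had an r above 0.1 (−0.23 to 0.51), so the numbers were not taken as pairs. As a hint of pairing, 11 of 15 values of r were above 0. The best match in another genotype had the same number in 11 of 30 cases, where 6 are expected by chance if sex is left aside. A shared sex was not told apart from a shared number.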
